A study of Mus musculus with 8 samples.

Results

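The RUNX factors, the TCF1 group and their companions keep the T-cell programme in place, and 10 of their genes were read out in Th17 cells with and without *Trim28*. They were chosen by name, from knowledge of their function, as *Runx1*, *Runx2*, *Runx3*, *Cbfb*, *Tcf7*, *Lef1*, *Satb1*, *Tox*, *Bcl11b* and *Ets1*, among 13704 genes listed in the RNA-seq tables. Earlier results of these data were known at the time, so the choice was not blind to the values. Of the 10 genes, 9 were listed in both libraries with at least 10 reads in all, and *Runx1* was listed in neither. The series holds 2 RNA-seq libraries and 6 ChIP-seq samples, and the ChIP-seq samples were not analysed here. One RNA-seq library came from wild type C57BL/6 cells (WT), and the other from C57BL/6 cells of TRIM28fl/flxCD4cre mice (KO), in which Cre made from the *Cd4* promoter deletes *Trim28* in developing T cells. The mice that gave the KO cells therefore lost *Trim28* in the CD8 lineage too, and the deletion preceded the culture. Both libraries were made from naive CD4+ T cells sorted from spleen and lymph nodes, driven to the Th17 fate over 3 days by TGF-β (0.5 ng/ml) plus IL-6 (20 ng/ml), and then re-stimulated with anti-CD3. Whether the WT mice carried the Cre or a loxP-flanked allele, and whether animals were pooled, is not given in the sources used here. With 1 library per genotype no difference has a replicate check, and no p-value is given.

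RUNX proteins bind DNA through a domain shared by RUNX1, RUNX2 and RUNX3, and need the partner protein CBFβ for stable binding. In T cells RUNX complexes silence *Cd4* in the CD8 lineage and control cytokine genes. TCF1, the product of *Tcf7*, LEF1 and TOX bend DNA with an HMG box, and TCF1 marks naive and long-lived T cells. BCL11B is a zinc finger protein that locks in T-cell commitment, SATB1 folds chromatin around genes of developing and naive T cells, and ETS1 is an abundant lymphocyte factor that often binds next to RUNX.

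Promoter sequences from RefSeq (GRCm38.p6), each from 250 bases before to 50 bases after a gene start and printed 5′ to 3′ on the gene's strand, were found for 8 of the 10 genes, and none was found for *Tox* or *Ets1*. The outermost promoters of the RUNX genes are shown because each holds a match to the sequence that RUNX proteins bind. Capitals mark TGTGGT (RUNX), CTTTGA (TCF/LEF) and CCGGAA (ETS), searched on both strands, and these 3 motifs do not overlap one another in the sequences shown.
Runx1: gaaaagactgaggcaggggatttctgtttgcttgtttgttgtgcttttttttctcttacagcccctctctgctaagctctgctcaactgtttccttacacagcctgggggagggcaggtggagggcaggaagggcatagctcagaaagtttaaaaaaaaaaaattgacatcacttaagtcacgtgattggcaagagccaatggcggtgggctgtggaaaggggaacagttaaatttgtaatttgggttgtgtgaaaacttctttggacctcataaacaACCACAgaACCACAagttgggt
Runx2: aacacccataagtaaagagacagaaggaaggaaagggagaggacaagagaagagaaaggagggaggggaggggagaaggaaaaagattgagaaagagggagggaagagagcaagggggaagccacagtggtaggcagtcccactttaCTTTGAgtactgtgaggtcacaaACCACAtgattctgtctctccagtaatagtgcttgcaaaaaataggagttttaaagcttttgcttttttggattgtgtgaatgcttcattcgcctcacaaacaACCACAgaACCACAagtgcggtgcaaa
Runx3: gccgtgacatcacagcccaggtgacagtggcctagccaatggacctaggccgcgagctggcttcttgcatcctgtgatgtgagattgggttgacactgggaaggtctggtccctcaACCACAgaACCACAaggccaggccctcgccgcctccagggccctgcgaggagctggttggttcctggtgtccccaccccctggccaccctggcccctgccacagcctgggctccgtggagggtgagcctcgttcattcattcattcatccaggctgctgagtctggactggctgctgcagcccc
The *Runx1* promoter lies at chr16:92826025-92826324 on the minus strand, the *Runx2* promoter at chr17:44814578-44814877 on the minus strand and the *Runx3* promoter at chr4:135120395-135120694 on the plus strand. Each holds 2 copies of ACCACA, the reverse complement of the RUNX motif, with 2 bases between them. The copies start at positions 29 and 37 from the gene start in *Runx1*, 24 and 32 in *Runx2*, and -134 and -126 in *Runx3*. Such a pair was found in 7 of 32851 promoters of the table (0.0213%), of which these are 3, and it was searched for after the sequences had been seen. *Runx2* holds a single further copy at -80 and a TCF/LEF match at -103. At least 1 RUNX motif was in 16.8% of all promoters, at least 1 TCF/LEF motif in 16.0% and at least 1 ETS motif in 14.9%. Of the 18 promoters found for the members, 3, 3 and 2 held these motifs, in that order. A match is a run of letters and does not show that a factor binds there.

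The next pair of promoters belongs to the members with the largest difference between the libraries. The first of 5 annotated *Satb1* promoters is at chr17:51833241-51833540 on the minus strand, and the only *Bcl11b* promoter in the table at chr12:108003365-108003664 on the minus strand.
Satb1: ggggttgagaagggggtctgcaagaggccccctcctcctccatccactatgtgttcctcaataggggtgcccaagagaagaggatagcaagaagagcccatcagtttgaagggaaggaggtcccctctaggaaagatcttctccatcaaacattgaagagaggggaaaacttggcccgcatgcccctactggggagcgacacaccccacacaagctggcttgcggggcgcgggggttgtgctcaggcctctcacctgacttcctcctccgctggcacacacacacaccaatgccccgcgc
Bcl11b: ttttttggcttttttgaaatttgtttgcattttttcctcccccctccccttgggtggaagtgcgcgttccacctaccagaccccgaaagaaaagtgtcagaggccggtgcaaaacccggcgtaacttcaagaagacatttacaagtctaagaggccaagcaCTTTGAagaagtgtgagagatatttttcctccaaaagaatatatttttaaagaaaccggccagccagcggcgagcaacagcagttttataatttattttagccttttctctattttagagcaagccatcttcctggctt
None of the 5 *Satb1* promoters holds these 3 motifs, and the *Bcl11b* promoter holds a single TCF/LEF match at position -89. Of the other members, *Tcf7* has an ETS match at -24 of its second promoter, and *Lef1* has TCF/LEF matches at -180 and -120 of promoter 4.

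The libraries held 6.65 M (WT) and 6.19 M (KO) assigned reads, where M stands for 1000000. *Trim28* itself was counted 4485 times in WT and 180 times in KO, which is 4.33% of the WT level after scaling. Of 6 CD4+ T-cell markers all were well covered, from 555 to 8897 reads in WT. Of the markers of other cells, *Cd8a* had 1 and 2 reads in WT and KO, whereas *Cd8b1*, the other CD8 marker, had 52 and 27. *Lyz2*, *Csf1r* and *Ncr1* were listed in neither library, which gives no level for them. Of 5 B-cell markers, *Cd79a* (20 and 8 reads), *Cd79b* (15 and 2), *Ms4a1* (7 and 2) and *Pax5* (8 and 0) were listed and *Cd22* was not, and together they held 50 reads in WT and 12 in KO. Another B-cell marker of the list is not reported and is left out of that sum, so the sum does not stand for the B-cell list as a whole. The 8 markers of macrophages, monocytes and dendritic cells summed to 3.46 CPM (reads per 1000000 reads) in WT and 3.72 in KO, the 2 CD8 markers to 7.97 and 4.69, and the 4 natural killer markers, in fact *Klrd1* alone, to 8.72 and 11.3. These sums were small beside *Tcf7* or *Runx3* but reached the size of *Lef1* or *Runx2*. The natural killer sum also came near *Cbfb* in WT (9.02 CPM) and stood above *Cbfb* (8.41) and *Bcl11b* (8.25) in KO. The part of such cells in the values of these genes was not tested. In such bulk libraries fewer cells of a type and less RNA per cell cannot be told apart.

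**Figure D1:**
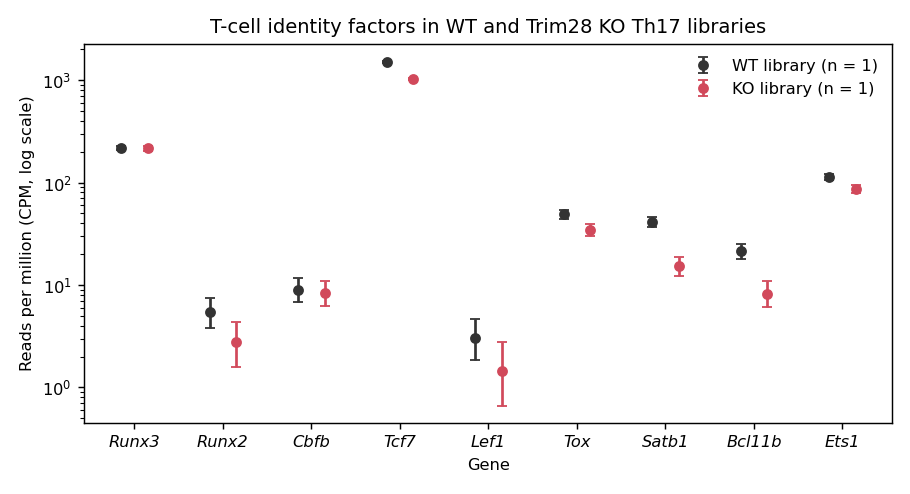
Level of each listed factor in the WT library (dark) and the KO library (red), in CPM on a log scale, with 1 library per genotype. Bars are exact Poisson 95% intervals and cover counting error only. *Runx3* sits at 218 and 216, while *Satb1* drops from 41.2 to 15.2 and *Bcl11b* from 21.4 to 8.25.

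As a group, the T-cell identity factors were lower in the KO library or level between the libraries, and none was higher beyond counting error. Fold changes are log2(KO/WT) of counts scaled to the library totals, with 0.5 added to each count, and their exact 95% intervals come from the KO share of each gene's reads. Of the 9 factors with at least 10 reads, 3 were at least 2-fold lower in KO (*Satb1*, *Bcl11b* and *Lef1*), against 7.94% of the 10881 genes with that many reads. None was at least 2-fold higher, against 3.75% of all genes. Before any correction for transcript length, the interval lay wholly below 0 for 6 of the 9 (66.7%), against 25.0% of all genes. It lay wholly above 0 for none, against 23.5%. This was not particular to the factors. The share wholly below 0 was 68.8% among relatives of the SATB, BCL11, TOX and ETS families and 57.1% among RUNX and TCF cofactors. It was 21.4% among genes of the NuRD complex. The median log2 fold change of the 9 was -0.54, beside -0.02 for all genes. Since the factors were chosen with earlier results of these data known, these contrasts describe the set and do not test it. The 10 genes together held 13037 reads in WT and 8671 in KO, 1960 and 1402 CPM. *Tcf7* alone made up 76.5% of those reads in WT (exact binomial 95% interval 75.8% to 77.2%) and 73.4% in KO (72.4% to 74.3%). With 1 library per genotype, intervals here cover counting error only. Reads carry no molecular identifiers, so copies of 1 molecule may be counted as separate reads and the intervals may be too narrow.

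**Figure D2:**
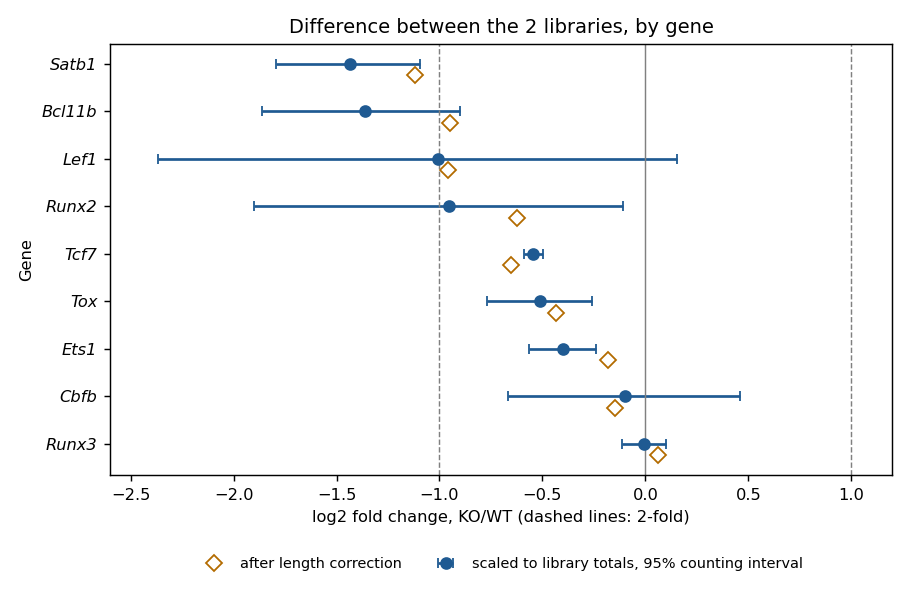
log2 fold change (KO/WT) of each factor with its exact 95% counting interval (filled circles), and the same value after removal of the trend with transcript length (open diamonds). Dashed lines mark 2-fold. *Satb1* is the only factor whose whole interval lies past 2-fold, and *Runx3* sits at -0.01.

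Among the RUNX genes, *Runx3* was the one with many reads, and its level was nearly equal in the libraries. *Runx3* encodes the RUNX protein of CD8 and cytotoxic T cells, which also acts in helper T cells. It lies on chromosome 4 from 135120645 to 135177990 (GRCm38) and had 1447 reads in WT and 1339 in KO, or 218 and 216 CPM. Its log2 fold change was -0.01, and the counting interval ran from -0.12 to 0.10. *Runx2*, best known as the bone-forming factor, lies on chromosome 17 from 44495987 to 44814797 and had 36 and 17 reads, 5.41 and 2.75 CPM. The log2 value was -0.96 with a wide interval, from -1.90 to -0.11. Among the reads of *Runx2* and *Runx3* alone, the share from *Runx2* was 2.43% in WT (exact 95% interval 1.71% to 3.34%). It was 1.25% in KO (0.732% to 2.00%), and these intervals overlap. *Runx1*, on chromosome 16 from 92601466 to 92826074, encodes the RUNX protein of blood stem cells and early thymocytes. It is only known to be listed in neither table, as were *Myc* and *Nfatc1*, which activated T cells are known to use, so no level or limit is given for it.
*Cbfb*, the gene of the common partner, lies on chromosome 8 from 105170674 to 105217989. It had 60 reads in WT and 52 in KO, 9.02 and 8.41 CPM. The log2 fold change was -0.10, with an interval from -0.67 to 0.46, so a difference within that range was not detectable at this depth.

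The HMG box genes all had log2 fold changes below 0, with overlapping intervals and very different precision. *Tcf7*, on chromosome 11 from 52246527 to 52283383, had 9975 reads in WT and 6363 in KO, 1500 and 1029 CPM. The KO level was 68.6% of the WT level, or -0.54 on the log2 scale (from -0.59 to -0.50). It is the most precise value among the factors because it rests on the most reads. *Tox*, on chromosome 4 from 6686353 to 6991557, is needed for CD4 lineage development and is induced by lasting T-cell receptor signals. It had 325 and 212 reads, 48.9 and 34.3 CPM, which gave -0.51 on the log2 scale (from -0.77 to -0.26), close to *Tcf7*. *Lef1*, the close relative of *Tcf7*, lies on chromosome 3 from 131110297 to 131224357 and had only 20 and 9 reads. Its log2 fold change was -1.01, just past 2-fold, but the interval from -2.37 to 0.15 includes 0.
Among reads of these 3 genes, *Tcf7* took 96.7% in WT and 96.6% in KO, and *Tox* 3.15% and 3.22%. The balance between *Tcf7* and *Tox* thus differed by less than its counting error.

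*Satb1* and *Bcl11b* stood lowest in KO relative to WT. *Satb1*, on chromosome 17 from 51736187 to 51833290, had 274 reads in WT and 94 in KO, 41.2 and 15.2 CPM. The KO level was 37.0% of WT, with an interval from 28.9% to 46.8%. On the log2 scale this was -1.43 (from -1.79 to -1.10), and 3.95% of all genes with at least 10 reads had a lower value. The study itself displays *Satb1* among the genes lower in these libraries, so its direction is not independent evidence. *Bcl11b*, on chromosome 12 from 107910403 to 108004145, had 142 and 51 reads, 21.4 and 8.25 CPM. The KO level was 38.9% of WT (from 27.5% to 53.5%), or -1.36 on the log2 scale (from -1.86 to -0.90), with 4.39% of genes lower. *Ets1*, on chromosome 9 from 32636241 to 32757820, differed less, with 758 and 534 reads, 114 and 86.3 CPM. Its log2 fold change was -0.40 (from -0.56 to -0.24).
Without a correction for length, the factors differed to unequal degrees. The intervals of *Satb1* and of *Bcl11b* each lay wholly below those of 5 others, *Tcf7*, *Tox*, *Ets1*, *Cbfb* and *Runx3*. The intervals of *Tcf7*, *Tox* and *Ets1* lay wholly below that of *Runx3*. Those of *Runx2* and *Lef1*, with 53 and 29 reads over both libraries, overlapped with those of *Satb1*, *Bcl11b* and *Tcf7*.

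**Figure D3:**
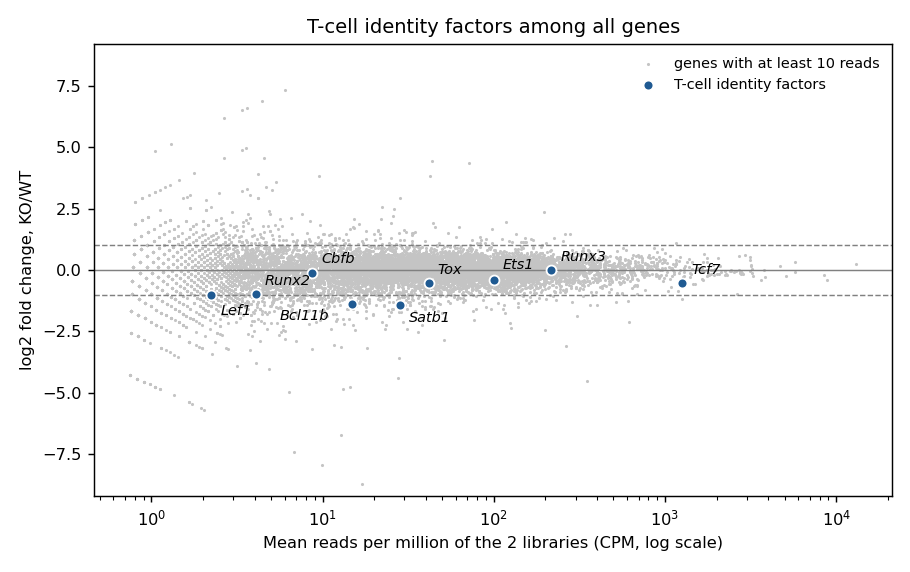
log2 fold change (KO/WT) against the mean level of the libraries in CPM (log scale), for all genes with at least 10 reads (grey) and the T-cell identity factors (blue). *Satb1* (-1.43) and *Bcl11b* (-1.36) lie near the lower edge of the cloud, and *Tcf7* (-0.54) is among the genes with the most reads.

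As RPKM (CPM per kilobase of the longest transcript), *Tcf7* stood first in WT at 607, followed by *Runx3* at 56.0, *Ets1* at 22.4, *Tox* at 12.3 and *Satb1* at 6.60. Lower levels were those of *Cbfb* (3.12) and *Bcl11b* (2.63), whose Poisson intervals overlap, and of *Runx2* (0.838) and *Lef1* (0.823), whose intervals also overlap. All other neighbours in that order were apart. In KO the first 4 genes had the same order on this scale, with levels of 416, 55.7, 17.0 and 8.65. *Satb1* at 2.43 and *Cbfb* at 2.91 changed places there, with overlapping intervals. *Bcl11b* followed at 1.02, *Runx2* at 0.425 and *Lef1* at 0.398.
The order depends on the transcript length used. Per kilobase of the median transcript, which is 409.5 bases for *Runx3*, its level became 531 in WT, beside 712 for *Tcf7*, and 529 in KO, where it stood above *Tcf7* at 488. The levels also depend on how reads were assigned. Tested genes with 1 curated RefSeq transcript (an NM record) had a median of 280 reads in WT, those with 2 such transcripts 135 and those with 3 or more 102. *Tcf7* and *Runx3*, the members with the most reads, each have 2 NM transcripts, and all other members have from 3 (*Tox*, *Bcl11b*) to 8 (*Satb1*). *Runx1* has 4, and 0 of its 7378 exonic bases belong to a single one of them, against 765 of 4134 in *Runx3* and 196 of 2737 in *Tcf7*. *Cbfb* had 31 such bases of 2914. The listed members with the lowest levels had more, *Lef1* with 282 of 3969 and *Runx2* with 636 of 6934, and *Ets1* had 302 of 5367. The part of the transcript number in the levels and in the fold changes was not tested. Of genes with 3 or more NM transcripts, 9.52% were at least 2-fold lower in KO, beside 6.22% of those with 1.

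Transcript length moved with the fold changes. Across the 10791 genes with at least 10 reads and a known length, the fold change and the length of the longest transcript had a rank correlation (Spearman) of -0.37, a description across genes, which are not independent replicates. The 9 listed factors had transcripts from 2471 (*Tcf7*) to 8111 bases (*Bcl11b*), with a median of 3961 bases beside 3317 for all those genes. Of genes with lengths within that range, 8.88% were at least 2-fold lower. After the trend had been removed with a loess curve, *Satb1* stayed past 2-fold at -1.12, whereas *Bcl11b* (-0.95) and *Lef1* (-0.96) came just short of it. With that correction 1 of 9 factors was at least 2-fold lower, against 6.77% of all 10791 genes, so the count is near the share over all genes. *Tcf7*, which is shorter than most genes, moved away from 0 to -0.65. *Ets1* moved to -0.18, *Runx2* to -0.62, *Tox* to -0.43, *Cbfb* to -0.15 and *Runx3* to 0.06. The median of the 9 was then -0.62. Shifted in the same way, the interval of *Satb1* still lay wholly below those of the same 5 genes. That of *Bcl11b* (from -1.45 to -0.49) lay wholly below those of *Ets1* and *Runx3*, and overlapped those of *Tcf7*, *Tox* and *Cbfb*. *Tcf7* and *Tox* stayed wholly below *Runx3*, whereas the interval of *Ets1* (from -0.34 to -0.02) overlapped that of *Runx3* (from -0.05 to 0.17). The shifted interval of *Runx2* (from -1.57 to 0.22) included 0. The share of shifted intervals wholly below 0 was not computed over all genes.

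**Figure D4:**
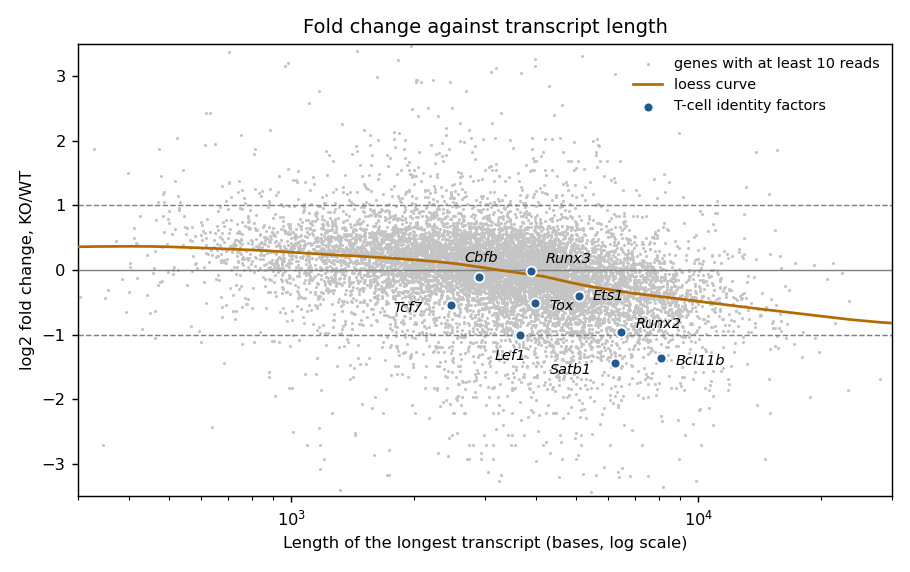
log2 fold change (KO/WT) against the length of the longest annotated transcript in bases (log scale), for all genes with at least 10 reads (grey), the loess curve through them and the T-cell identity factors (blue). Points beyond the axis limits are not drawn. *Satb1* and *Bcl11b* have long transcripts and lie below the curve, and *Tcf7* has a short transcript and lies below it too.

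Related and cooperating genes were taken from lists written from knowledge of their function, with earlier results of these data known. Their counts stand beside 7.94% of all genes at least 2-fold lower and 3.75% higher, and beside 25.0% with intervals wholly below 0 and 23.5% above. Cofactors that RUNX and TCF/LEF proteins recruit, such as the p300 and Groucho families, had a median of -0.81. Of 14 with at least 10 reads (of 19), 3 were at least 2-fold lower and none was higher, and intervals lay wholly below 0 for 8 and wholly above it for 2. *Hipk2*, a kinase that phosphorylates RUNX1 and p300, had 141 and 43 reads (-1.60). *Kmt2a*, the MLL methyltransferase of histone H3 lysine 4, had 2986 and 1345 reads (-1.05), and the study displays it among the genes lower in these libraries. The other gene, *Tle2*, rested on 8 and 3 reads and was named after its values were seen. With the length trend removed, the median of the list was -0.36 and *Kmt2a* stood at -0.39, so the list, below the 9 factors before the correction, lay above their -0.62 after it.
Relatives of the SATB, BCL11, TOX and ETS families had a median of -0.47, with intervals wholly below 0 for 11 and wholly above it for 1. Of 16 genes, 3 were at least 2-fold lower and none higher. *Elk4*, an ETS partner of serum response factor, had 375 and 144 reads (-1.27). The other 2 rested on few reads, *Spib* with 29 and 12 and *Bcl11a*, the paralog of *Bcl11b*, with 11 in WT and 0 in KO, and they were named after their values were seen. Both are known as genes of B-lineage cells. Of the markers of such cells, *Cd79a*, *Cd79b*, *Ms4a1* and *Pax5* had 50 reads in WT and 12 in KO. That sum leaves out another marker of the list and does not stand for the list as a whole. The part of B-lineage cells in the values of *Spib* and *Bcl11a* was not tested.

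Genes that go with TCF1 in naive and memory T cells had a median of -0.39. Of 20 with at least 10 reads (of 21), 3 were at least 2-fold lower, none higher, and 11 had intervals wholly below 0 and 3 wholly above it. The 3 were *Tnfsf8*, the gene of CD30 ligand (256 and 102 reads, -1.22), the Krüppel-like factor gene *Klf7* (137 and 55 reads, -1.20) and *Myb*, a factor of blood progenitors and stem-like T cells (92 and 41 reads, -1.05). *Tnfsf8* is another gene that the study displays as lower, so its direction is not independent evidence. After the length correction *Klf7* stood at -0.81.
Other factors of T-cell commitment and CD4 lineage choice had a median of -0.31, with 2 of 17 (11.8%) at least 2-fold lower, *Myb* again and *Sox4*, an HMG box gene of the SOX family (255 and 101 reads, -1.23), which the study also displays as lower. None was at least 2-fold higher, and intervals lay wholly below 0 for 9 and wholly above it for 2.

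**Figure D5:**
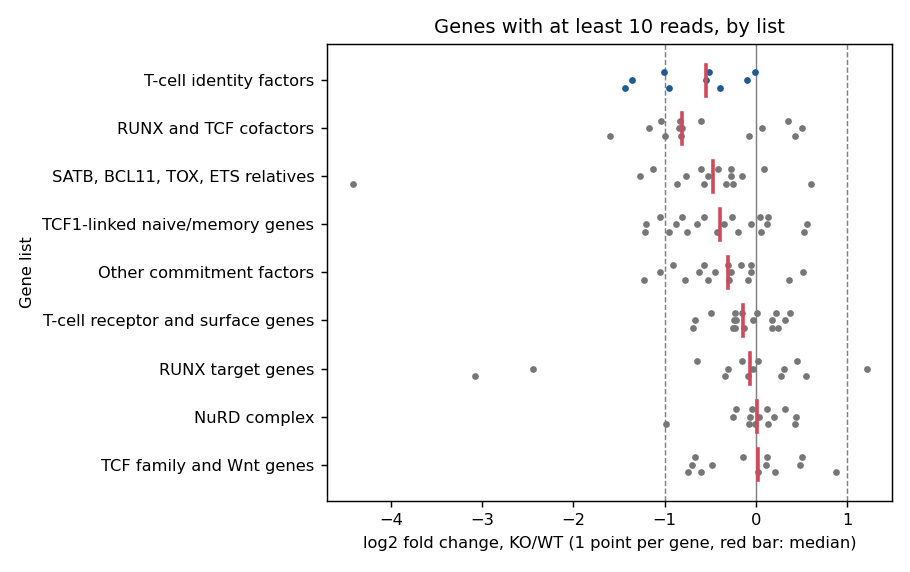
log2 fold change (KO/WT) of every gene with at least 10 reads, 1 point per gene, in the T-cell identity factors (blue) and 8 lists of related genes (grey). Red bars are medians, from -0.81 for the RUNX and TCF cofactors to 0.02 for the TCF family and Wnt genes, and dashed lines mark 2-fold. The leftmost point is *Bcl11a*, with 0 reads in KO, whose place depends on the 0.5 added.

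Of 18 genes of the T-cell receptor complex and T-cell surface, none was 2-fold lower or higher, with values from -0.70 to 0.37 and a median of -0.15. Their intervals lay wholly below 0 for 8 and wholly above it for 6. The NuRD complex, which removes acetyl groups from histones and binds BCL11B and SATB1, had members that were lower and members that were higher. All its 14 genes had at least 10 reads, none differed by 2-fold, and the median was 0.01, with 3 intervals wholly below 0 and 5 wholly above it. The values ran from -0.98 to 0.44. The TCF relatives and Wnt pathway genes had a median of 0.02, with 0 of 13 at least 2-fold lower or higher, 6 intervals wholly below 0 and 2 wholly above it.
Genes known as RUNX targets in T cells had a median of -0.06, with intervals wholly below 0 for 5 and wholly above it for 1. Of 14 genes, 2 were at least 2-fold lower and 1 higher. The 2 were the Th17 cytokine genes *Il17f* (3143 and 345 reads, -3.08) and *Il17a* (2226 and 381 reads, -2.44), both displayed by the study as lower and so not independent evidence. The higher one was *Prf1*, the perforin gene of cytotoxic cells, with 22 and 48 reads, named after its values were seen. *Cd4*, a gene that RUNX complexes silence in CD8 cells, had 7904 and 6598 reads in the WT and KO libraries.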

How the data were processed

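RNA-seq was done on 1 WT and 1 KO Th17 library. According to the methods, reads were mapped to mm10 with SOAP2. The submitters' processing notes also name bcl2fastq, HTSeq, Bowtie and SICER 1.1. The authors deposited counts, 1 whole number of unique reads for each gene, which had not been normalized. The annotation, the strand setting and the handling of reads shared between genes or transcripts are not given in the sources used here. A gene listed in only 1 table was given 0 reads in the other.

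Counts were scaled to the library totals, 0.5 was added to each count for log2 fold changes, and exact (Clopper-Pearson) 95% intervals were computed in SciPy 1.17.1. A gene was compared if the libraries together held 10 or more of its reads. A floor of 3 reads is 0.451 CPM in WT and 0.485 CPM in KO. A count test needs replicates, so with 1 library per group none was made. Transcript lengths came from GENCODE M21, and positions, NM transcripts and promoters from RefSeq GRCm38.p6, the assembly behind mm10. Of 13704 gene names, 13050 matched a symbol, 601 an older symbol and 53 none. The trend with length was taken with lowess (statsmodels 0.14.6, span 0.3).

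The members and lists were chosen with earlier results of these data known. Outside the members, *Trim28* and the cell type markers, the genes named with values are those past 2-fold with at least 50 reads in the higher library and an interval without 0, at most 6 per list. Exceptions are stated, and *Cd4*, *Myc* and *Nfatc1* were added after their values were seen. Alternatives were upper-quartile scaling, DESeq2 1.42.0 size factors, TMM factors (edgeR 4.0.16), 5 added to each count, 3 other filters, corrections for length and GC content, and a fold limit of 1.5. The calculations were tested on simulated data. One cell type marker is not reported here.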

Additional observations from a re-analysis of the deposited data

How the results depend on the processing

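With 1 library per genotype, no library could be left out, and no paired analysis was possible because the groups share no replicate numbers beyond 1 library each. The number of factors at least 2-fold lower (3) became 1 with the length correction, which left *Satb1*, beside 6.77% of all genes. It was 2 with TMM, DESeq2's size factors, 5 added to each count, the GC correction and at least 10 reads in each library, a filter that left 8 factors, and 4 at a fold limit of 1.5. Of all genes, from 4.30% to 7.83% were lower under the settings that gave 2, and 17.7% at the limit of 1.5. No factor was 2-fold higher under any of these settings. For *Satb1* the log2 fold change ran from -1.43 to -1.12 and for *Bcl11b* from -1.36 to -0.95 over all alternatives, while *Cbfb* (-0.15 to 0.03) and *Runx3* (-0.08 to 0.06) changed sign. Of the values of single factors, 78 stayed within their counting interval and 2 left it, *Tcf7* at -0.65 and *Ets1* at -0.18 with the length correction. The 3 other filters cannot change the value of a gene that they keep, and wide intervals such as that of *Lef1* are hard to leave. The count of 78 is therefore no measure of robustness.
At a fold limit of 1.5 the lower counts rose to 9 for the cofactors, 8 for the TCF1-linked genes, 6 for the relatives, 5 for the commitment factors, 4 for the Wnt genes, 2 for the T-cell surface genes and 1 for NuRD, and the higher counts to 1 for the Wnt genes and 1 for the relatives. With no filter beyond 1 read, 6 commitment factors were lower, and 2 Wnt genes and 1 relative higher. The commitment count fell to 1 with 5 added to each count and to 1 with the GC correction. Over all genes, 864 were at least 2-fold lower and 408 higher, 2012 and 1152 with no filter beyond 1 read, 406 and 195 with at least 10 reads in each library, 551 and 262 with 5 added to each count, and 1927 and 1170 at a fold limit of 1.5. Per kilobase of the median transcript length, 14 of 18 levels left their counting interval, and *Runx3* (529) stood above *Tcf7* (488) in KO. The causes were not tested.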
